A study of Sus scrofa with 36 samples.

Results

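The response to heat stress (HS) in the adrenal glands of Large White pigs was measured by comparing 6 HS pigs with 6 pigs kept in thermoneutral (TN) conditions, 1 array per pig. Large White is a lean commercial breed. These 12 arrays, chosen by the breed and temperature in their labels, are part of a series of 36 arrays that also holds 12 arrays of Creole pigs, a local breed reared in the tropics, and 12 arrays of the Large White x Creole cross, again with 6 TN and 6 HS pigs each. All pigs were castrated males. The TN temperature was 24 °C. The growth protocol gives 32 °C for up to 5 days of HS, whereas the labels of the HS arrays give 30 °C. TN pigs were slaughtered before the temperature was raised and HS pigs after it, so the day of slaughter and the temperature cannot be told apart. The 12 Large White pigs came from 3 blocks of 4 littermates and were kept 3 to a pen, each pen holding 1 pig of each block, so that each group of 6 filled 2 pens. The pigs of a group are therefore not independent of one another. The litter, parents and pen of a pig are not given with its array, so none of these could be fitted, and their part in the differences was not tested. Standard errors (SE) and p-values rest on a spread pooled within the 6 groups of all 36 arrays, so Creole and cross pigs enter them. They measure the spread between the pigs of this series only.

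The adrenal gland joins 2 organs in 1. Its cortex makes aldosterone, cortisol and androgens from cholesterol under the control of angiotensin and ACTH, and its medulla holds chromaffin cells that make adrenaline and noradrenaline and store them with granins and neuropeptides. Cells exposed to heat typically produce heat shock proteins, chaperones that keep other proteins folded, under the control of the transcription factor HSF1. The labelled tissue was present in these arrays: CYP11A1, the enzyme that starts steroid synthesis, averaged 16.29 ± 0.11 in TN and 16.13 ± 0.17 in HS, and PNMT, the enzyme that makes adrenaline, averaged 15.24 ± 0.28 and 14.70 ± 0.42 (log2 intensity, mean ± SD, n = 6), high on a scale that ran from 4.60 to 19.38 in the table.

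The normalized log2 values of the 12 arrays correlated with one another at 0.987 to 0.996 across probes. The median raw intensity was 149.0 to 180.5 in TN and 146.0 to 176.0 in HS. TN pig 4 had the 180.5, and the other TN pigs at most 157.5. In TN 42436 to 48060 probes per array were well above background, and in HS 44419 to 47657. Precision is limited by the 6 arrays of each group. Of the 45348 probes in the table, 24087 carried 1 gene name, which gave 11485 genes.

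The sequences of the probes on which the results turn are shown here because they say which probes are independent readings of a transcript. Each probe is a strand of 60 bases built on the array, written 5′ to 3′ as the array's files give it. The probe named MLKL and a probe without a symbol whose description is mixed lineage kinase domain-like differ at 1 base, A18C counted from 1 at the 5′ end of the named probe, which is in capitals in both.
MLKL, named: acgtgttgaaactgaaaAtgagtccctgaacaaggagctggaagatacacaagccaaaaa
MLKL, by description: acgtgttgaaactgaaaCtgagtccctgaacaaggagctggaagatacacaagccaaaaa
The other 59 bases are the same, so these 2 probes are not independent. For KLF4, 2 of its 8 distinct probe sequences are given, each of which stands on the array under 2 names.
KLF4, first: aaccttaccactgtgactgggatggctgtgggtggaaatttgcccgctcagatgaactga
KLF4, second: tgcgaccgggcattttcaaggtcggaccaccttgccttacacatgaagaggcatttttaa
The genes described after these were read, among others, by the following probes. The PNMT sequence and the BAX sequence were each on the array under 2 names as well.
HSPA8: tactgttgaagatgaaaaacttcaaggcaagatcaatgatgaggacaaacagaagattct
PNMT: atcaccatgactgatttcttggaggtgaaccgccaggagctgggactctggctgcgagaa
BAX: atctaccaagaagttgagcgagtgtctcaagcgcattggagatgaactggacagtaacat
EHF: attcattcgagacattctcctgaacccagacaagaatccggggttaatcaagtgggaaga

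The response of the Large White pigs was small. Only 5 of 45348 probes, 0.011%, passed an FDR adjusted p of 0.05, and all 5 were lower in HS. They belong to MLKL and KLF4 alone. When the probes of a gene were averaged, 2 of 11485 genes, 0.0174%, passed, again MLKL and KLF4, and no gene rose. The median size of a probe's difference between HS and TN was 0.077 on the log2 scale, and 95% of probes differed by less than 0.30. At an unadjusted p of 0.05, 6.29% of probes passed, 3.26% lower and 3.03% higher. Of the genes 6.32% passed, 3.94% lower and 2.39% higher. In all, 56.1% of genes and 51.2% of probes were lower in HS. All tests are limma's moderated test with Benjamini-Hochberg adjustment over all probes or all genes.

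MLKL, a pseudokinase that carries out necroptosis, a form of programmed cell death, fell the more of the 2. The gene lies on chromosome 6 at 12923846 to 12951176 (RefSeq, Sscrofa11.1). In the 6 TN pigs its log2 intensity was 6.87 at the lowest, 8.29 at the median and 8.68 at the highest. In the 6 HS pigs it was 5.73, 6.06 and 6.53. The groups do not overlap, although 1 TN pig lay close to the HS pigs. The difference between HS and TN was -2.03 ± 0.34 (SE), a 4.08-fold lower intensity (FDR adjusted p = 0.0148). The probe named by its description ran from 7.34 to 9.08 in TN and from 6.0 to 6.97 in HS and differed by -2.15 ± 0.37 (adjusted p = 0.0307 in the fit of all probes). Within the 4 slides that held both groups the difference was -1.76, -1.01, -2.37 and -2.16. A fit that held the slide as a fixed block gave -1.70, which no longer passed, and for KLF4 -0.39, which did not pass either. With 1 of the 12 pigs left out in turn, MLKL passed 6 times (adjusted p 0.0014 to 0.090) and KLF4 3 times (0.0089 to 0.15). Both passed without TN pig 4, TN pig 5 or HS pig 1, and MLKL alone without TN pig 1 or HS pig 5 or 6. In the Creole pigs the named probe stood between 7.83 and 8.68 in TN and between 7.86 and 8.13 in HS. In the cross it stood between 6.27 and 7.24 in TN and between 5.46 and 8.85 in HS. The 6 HS pigs of the cross thus covered a wider range than all 12 Large White pigs.

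KLF4, a transcription factor of the immediate-early response that restrains cell division, fell by 0.47 ± 0.09 (SE) on the log2 scale over its 10 probes (adjusted p = 0.0279). It lies on chromosome 1 at 248604817 to 248609574. The mean of its probes was 7.86 at the lowest, 8.09 at the median and 8.27 at the highest in TN, against 7.49, 7.61 and 7.79 in HS. Every HS pig was below every TN pig. All 10 probes were lower in HS, by 0.66 to 0.05, and 3 of them passed in the fit of all probes. The probe with the smallest difference, -0.05 ± 0.07, shared no run of 15 bases with the others. The pairs of identical probes gave -0.37 and -0.45 for the first sequence printed above and -0.47 and -0.45 for the second. In the Creole pigs the mean of the same probes differed by -0.21 and in the cross by 0.05.

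**Figure D1:**
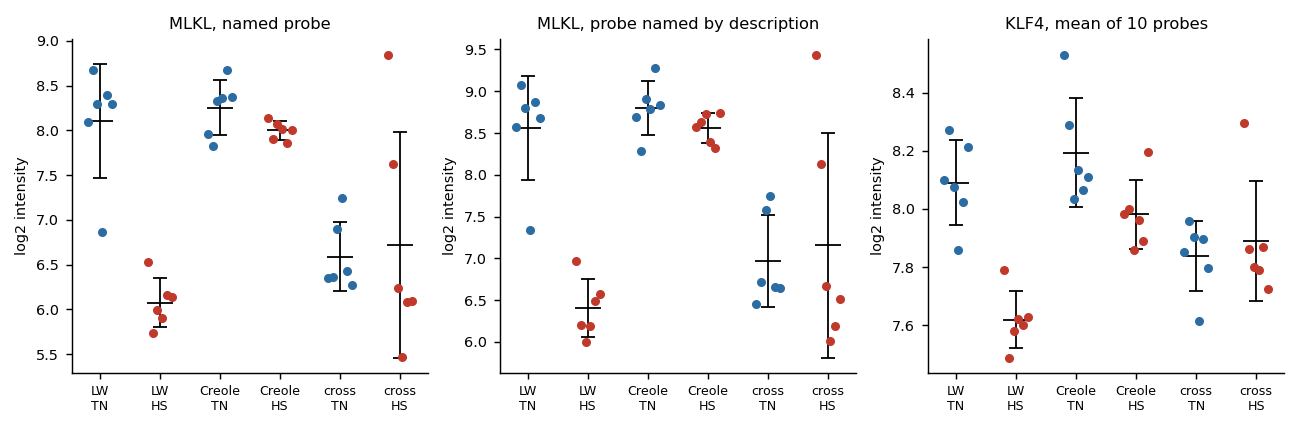
Log2 intensity of the 2 probes of MLKL and of the mean of the 10 probes of KLF4 in each pig of the 6 groups, with TN in blue and HS in red; LW is Large White, and bars are the mean and SD of 6 pigs. The Large White HS pigs lie below all Large White TN pigs in each panel, whereas the cross HS pigs spread over most of the MLKL range.

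Whether the response of Large White differed from the mean response of the Creole and cross pigs was tested as an interaction. No probe and no gene passed an FDR adjusted p of 0.05 (0 of 45348 and 0 of 11485), and 3.57% of probes and 3.41% of genes passed an unadjusted p of 0.05. MLKL differed from the other breeds by -1.97 (unadjusted p = 4.8e-05, adjusted p = 0.55) and KLF4 by -0.39 (unadjusted p = 0.00078). These 2 genes were chosen by the Large White comparison that the interaction contains, so its p-values are not independent of that choice.

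Many of the large differences came with a wide spread within a group. A difference over 1 on the log2 scale was seen for 36 probes, 22 higher and 14 lower in HS. In 27 of them the SD within TN or HS was itself over 1, which was true of 0.677% of all probes. An unadjusted p under 0.05 was reached by 16 of the 36, and by 7 of the 10 genes with a difference over 1. The groups did not overlap for 3 of the 36 (the 2 MLKL probes and 1 of PUSL1), and for 0.37% of all probes. Some examples follow, chosen after their values were seen. The only probe of FAM19A3, which encodes a small secreted protein, was between 5.72 and 6.26 in all 6 TN pigs, between 9.37 and 10.25 in 4 HS pigs, and 5.97 and 6.49 in the other 2 (unadjusted p = 0.0031, adjusted p = 0.57). ANKRD58 was at 11.01 in 1 TN pig and between 6.88 and 7.34 in the other 5, but at 7.30 in 1 HS pig and between 10.78 and 11.45 in the rest (unadjusted p = 0.0082, adjusted p = 0.67). TOR3A, an ATPase of the endoplasmic reticulum, was at 5.06 in 1 TN pig and at 5.16 in 2 HS pigs, against at least 11.16 in the other 9 (unadjusted p = 0.41). GSTA2, a glutathione transferase with the largest difference of any probe, averaged 13.05 ± 1.78 in TN and 15.68 ± 1.83 in HS (n = 6). Its unadjusted p of 0.22 rests on an SE of 2.12 pooled over all breeds, so the spread in Creole and cross pigs enters it. These probes took low and high values within a group, and none of these 4 genes passed the FDR.

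**Figure D2:**
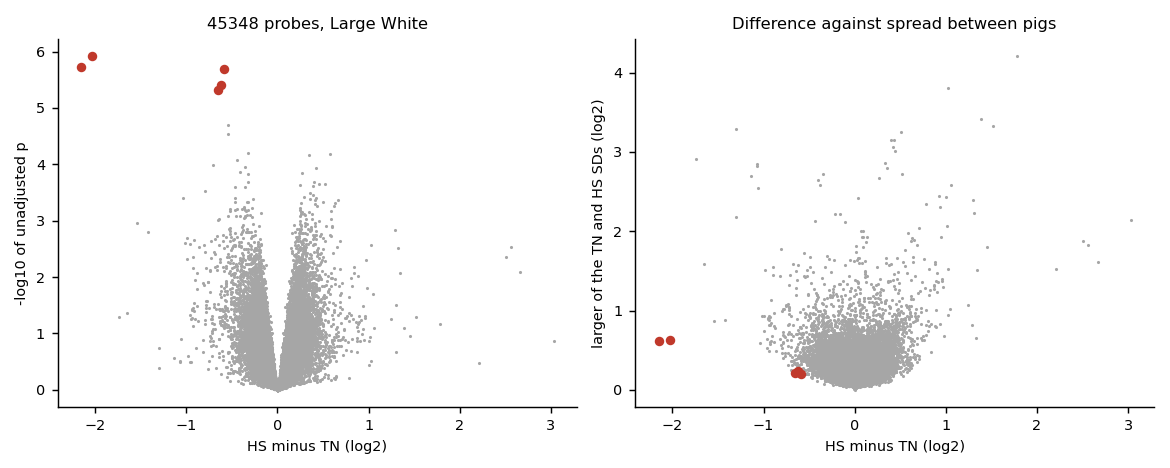
Left, each of the 45348 probes by its HS minus TN difference (log2) and the −log10 of its unadjusted p in Large White. Right, the same differences against the larger of the SDs within TN and HS; the 5 probes past the FDR, in red, lie at SDs under 1, whereas many of the largest differences lie above 1.

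Of the chaperones, the HSP70 and HSP110 family, which bind unfolded proteins, had more members lower than higher in HS. Of 14 genes with a probe, 12 were lower and 2 higher, with a median difference of -0.09 against -0.01 over all genes. This median was -0.17 without the arrays of slide 3 and -0.06 without those of slide 2. The mean level of the 14 genes was 9.36, 9.45 and 9.54 in TN pigs 1 to 3, 9.25 to 9.28 in TN pigs 4 to 6 and 9.14 to 9.25 in HS. At an unadjusted p of 0.05, 5 were lower and 1 higher, where 3.94% and 2.39% of all genes were, and none passed the FDR. Leaving out 1 pig at a time gave 3 to 6 lower at that p, with 3 without TN pig 3 or without HS pig 2, 3 or 5. HSPA8, the constitutive HSP70 of the cytosol, stood at 14.80, 15.11 and 15.36 (lowest, median and highest) in TN and at 14.39, 14.61 and 14.75 in HS. Its groups did not overlap, as for 0.383% of all genes, and its 2 probes gave -0.51 and -0.47 (unadjusted p = 0.0018, adjusted p = 0.54). HSPH1, the HSP110 that works as its exchange factor, was between 9.72 and 9.98 in TN and between 9.33 and 9.65 in HS, again without overlap. Its difference was -0.36 ± 0.12 with all 4 probes lower (adjusted p = 0.64). HSPA8 and HSPH1 were lower on each of the 4 slides with both groups. HSPA4, a second member of the HSP110 branch, was at 9.55, 9.78 and 9.76 in TN pigs 1 to 3 but at 8.88, 8.96 and 8.92 in TN pigs 4 to 6, and all HS pigs lay between 8.66 and 8.98. Its difference of -0.43 thus came from 3 of the 6 TN pigs. Of these, TN pigs 1 and 2 lay on slide 1, which held no Large White HS pig. Within the 4 slides with both groups the difference of HSPA4 was -0.89, -0.08, -0.05 and 0.06. HSPA9, the mitochondrial HSP70, was the member that was higher at an unadjusted p of 0.05, by 0.18, and no member was without TN pig 2, 3 or 5 or HS pig 1, 2, 3 or 5.

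All 18 measured co-chaperones and HSF1 targets were lower in HS, with a median of -0.11. Of these, 4 had an unadjusted p under 0.05, a level that 3.94% of all genes reached on the lower side, among them DNAJA4 at -0.18, AHSA1 at -0.15 and CACYBP at -0.15. Leaving out 1 pig at a time gave 15 to 18 lower genes and 1 to 7 at an unadjusted p under 0.05, with 1 without TN pig 2 or 3, 2 without TN pig 6 and 7 without TN pig 4. The inducible HSP70 (HSP70.2 in the reference) differed by -0.24 and DNAJB1, its co-chaperone, by -0.01. The cytosolic HSP90 genes HSP90AA1 and HSP90AB1 differed by -0.08 and -0.01. The small heat shock proteins showed no common direction, with 3 lower and 4 higher. Of the 19 genes of the unfolded protein response of the endoplasmic reticulum 12 were lower and 7 higher, none with an unadjusted p under 0.05 and at most 1 with 1 pig left out. No chaperone list therefore held a gene that passed the FDR in either direction.

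Immediate-early genes, which cells transcribe within minutes of a stimulus, were lower in 19 of 24 cases, with a median of -0.14 (-0.07 without slide 1). At an unadjusted p of 0.05, 6 were lower and none higher, against 3.94% and 2.39% of all genes, and KLF4 alone passed the FDR. JUN, a subunit of the AP-1 factor, was at 14.96, 15.36 and 15.81 in TN and at 14.57, 14.82 and 15.48 in HS. The groups overlapped, with HS pigs 1 and 6 above the lowest TN pig, and the difference was -0.50 ± 0.15 (adjusted p = 0.57). Both JUN probes have 1 sequence and are a single reading. DUSP1, a phosphatase that silences MAP kinases and is also induced by glucocorticoids, was at 13.19, 13.31 and 14.09 in TN and at 12.44, 12.66 and 13.46 in HS, a difference of -0.62 ± 0.23 (adjusted p = 0.67). On the 4 slides it was -0.02, -0.71, -0.56 and 0.04. KLF2 was lower by 0.22 (unadjusted p = 0.00081) and EGR2 by 0.38. FOS differed by -0.55 and EGR1 by -0.51 with unadjusted p-values of 0.064 and 0.078. Among the glucocorticoid-induced genes 13 of 17 were lower, 4 of them at an unadjusted p of 0.05, namely DUSP1, CEBPD at -0.34, KLF9 at -0.17 with all 12 probes lower, and SGK1 at -0.56. Without HS pig 3 that count was 2. FKBP5 and PER1, members of the same list, differed by -0.05 and less than 0.01.

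Most granin and neuropeptide genes of the medulla had lower values in HS, but none passed the FDR. Of 15 granins, neuropeptides and their processing enzymes 14 were lower and 1 higher, with a median of -0.31. At an unadjusted p of 0.05, 6 were lower and 1 higher, where 3.94% and 2.39% of all genes were. PCSK1, the convertase that cuts prohormones, was at 7.94, 8.06 and 8.39 in TN and at 7.20, 7.54 and 8.18 in HS (-0.49 ± 0.14, adjusted p = 0.54). CHGA, the main granin, differed by -0.25 over 4 probes, which gave -0.49, -0.37, -0.15 and, in the brightest, -0.01. SCG2 differed by -0.43, PENK, the enkephalin precursor, by -0.42 and galanin (GAL) by -0.89. The member higher in HS was ADCYAP1, the precursor of the neuropeptide PACAP, by 0.86, and no member was higher at an unadjusted p of 0.05 without TN pig 1, 2, 3 or 6 or HS pig 2, 3 or 5. PNMT ran from 14.95 to 15.60 in TN and from 14.21 to 15.37 in HS, with a difference of -0.54 ± 0.17 (adjusted p = 0.57) and the same sign on all 4 slides. HAND2, a transcription factor of sympathoadrenal cells, differed by -0.41 and DBH, which makes noradrenaline, by -0.31. Of 13 catecholamine genes 10 were lower and 3 higher, with a median of -0.07 that ran from -0.14 without TN pig 5 to -0.05 without TN pig 3. The median was also over 1.5 times as large without TN pig 4 (-0.11) or HS pig 1 (-0.13) or 6 (-0.12). At an unadjusted p of 0.05, 2 were lower, and 1 without HS pig 5.

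A single pig weighed on these medulla values. HS pig 5 was the lowest HS pig for CHGA (14.52), DBH (9.51), HAND2 (11.31) and the mean of the 7 chromaffin markers, which was 12.39 in this pig, 12.95 to 13.21 in the other HS pigs and 13.17 to 13.51 in the TN pigs. These 7 markers are all members of the granin or catecholamine list above, so they are not further genes. All 7 chromaffin markers were lower in HS, 4 at an unadjusted p of 0.05, with a median of -0.31, where 56.1% of all genes were lower and 3.94% at that p. Without HS pig 5 CHGA differed by -0.16, DBH by -0.15 and HAND2 by -0.30. All 7 markers were still lower, but 1 had an unadjusted p under 0.05 and the median was -0.16. Over the granins and neuropeptides the median became -0.16 as well, and 1 gene was lower at an unadjusted p of 0.05. In whole glands a smaller share of medulla and less RNA per chromaffin cell cannot be told apart.

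**Figure D3:**
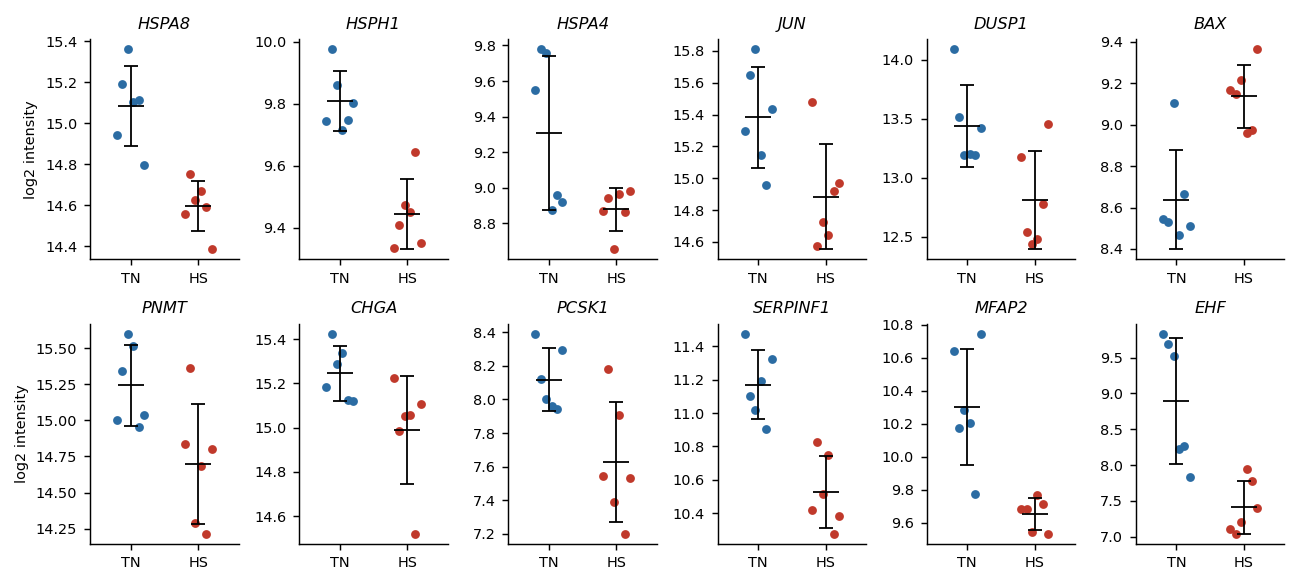
Log2 intensity of 12 named genes in each Large White pig (mean of a gene's probes, pigs 1 to 6 from left to right), TN in blue and HS in red, with the mean and SD of 6 pigs. HSPA8, HSPH1, SERPINF1 and MFAP2 do not overlap between groups; HSPA4 and EHF are high in TN pigs 1 to 3, and CHGA is lowest in HS pig 5.

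In the cortex, of 20 genes of steroid synthesis 17 were lower, where 56.1% of all genes were, with a median of -0.11. Of these 1 was lower at an unadjusted p of 0.05, CYP11A1 at -0.15, a share near the 3.94% of all genes. That count was 0 without TN pig 1, 2 or 3 or HS pig 2, 3, 4 or 5, 3 without TN pig 5 or HS pig 6 and 4 without TN pig 4. STAR, which brings cholesterol into the mitochondrion, was between 15.49 and 16.06 in TN and between 15.48 and 15.91 in HS (-0.19 ± 0.11), and CYP21A2, the 21-hydroxylase, differed by -0.14 ± 0.14, or -0.04 without TN pig 3 and -0.06 without TN pig 2. Over all settings CYP21A2 ran from -0.22 to -0.0044. The 9 markers of the zona fasciculata and reticularis were all lower, with a median of -0.14, and their mean level per pig was 12.22 to 12.76 in TN and 12.08 to 12.50 in HS. Apart from MC2R and NR5A1 these markers are members of the steroid list as well, so they are not further genes. NR5A1, the factor that drives steroid genes, differed by -0.11, its repressor NR0B1 by 0.22 and the related repressor NR0B2 by -0.55, all with adjusted p-values of 0.78 or more. The ACTH receptor MC2R differed by -0.14, and none of the 17 genes of ACTH and cAMP signalling had an unadjusted p under 0.05 (1 without TN pig 4). In the list for angiotensin and aldosterone 4 genes were lower and 3 higher, with a median of -0.09 (-0.05 without TN pig 1 and -0.04 without HS pig 5). In each direction 1 had an unadjusted p under 0.05, but none was lower at that p without HS pig 2. The higher one, CACNA1D, a calcium channel, differed by 0.35 with both probes higher (adjusted p = 0.67). Of 26 cholesterol genes 18 were lower and none had an unadjusted p under 0.05. Without TN pig 5, 3 were lower and 1 higher at that p, and leaving out another pig gave at most 2.

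Markers of further cell types were also read. Of 8 markers of the capsule and fibroblasts 6 were lower and 2 higher, with a median of -0.24. LUM and RSPO3 differed by -0.18 each, NR2F2 by 0.10 and PDGFRA by 0.09, all with an unadjusted p over 0.05. The other 4, DCN at -0.29, COL3A1 at -0.48, COL1A1 at -0.47 and COL1A2 at -0.46, each had an unadjusted p under 0.05 (3.94% of all genes were lower at that p). Leaving out 1 pig at a time gave 1 to 4 such markers, with 1 without TN pig 4 and 2 without TN pig 1 or 6 or HS pig 1, 5 or 6. The mean level of the list was 10.69 to 10.93 in TN and 10.42 to 10.73 in HS. SERPINF1, a secreted factor also called PEDF, ran from 10.91 to 11.47 in TN and from 10.28 to 10.83 in HS without overlap, and all 4 of its probes, which differ in sequence, gave between -0.70 and -0.56 (adjusted p = 0.58). MFAP2, a microfibril protein of the extracellular matrix, ran from 9.77 to 10.74 in TN and from 9.53 to 9.77 in HS (-0.65 ± 0.18, adjusted p = 0.54). The endothelial markers were lower in 3 and higher in 4 of 7 cases. Macrophage markers were lower in 7 of 9 cases and higher in 2, CD68 at 0.09 and MRC1 at 0.0023. Among the lower ones, C1QB at -0.18, CD163 at -0.23, CSF1R at -0.11 and AIF1 at -0.06 had an unadjusted p over 0.05. C1QA at -0.38, C1QC at -0.46 and CD14 at -0.16 were the 3 macrophage markers at an unadjusted p of 0.05. That count was 0 without TN pig 3 or HS pig 4 and 1 without TN pig 4 or HS pig 3 or 6. All 5 measured markers of red blood cells were lower, with a median of -0.14 (-0.21 without HS pig 2 and -0.22 without TN pig 5), and they included haemoglobin beta (HBB) at -0.93 and AHSP, which stabilises alpha globin, at -0.57. None of the 5 had an unadjusted p under 0.05 (1 without TN pig 1 or HS pig 1, 2 or 6), and their mean level was 8.57 to 9.50 in TN and 8.18 to 8.94 in HS. Of 9 adipocyte markers 6 were lower and 3 higher, with a median of -0.16 and none at an unadjusted p of 0.05. The part of the share of each cell type in these differences was not tested.

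**Figure D4:**
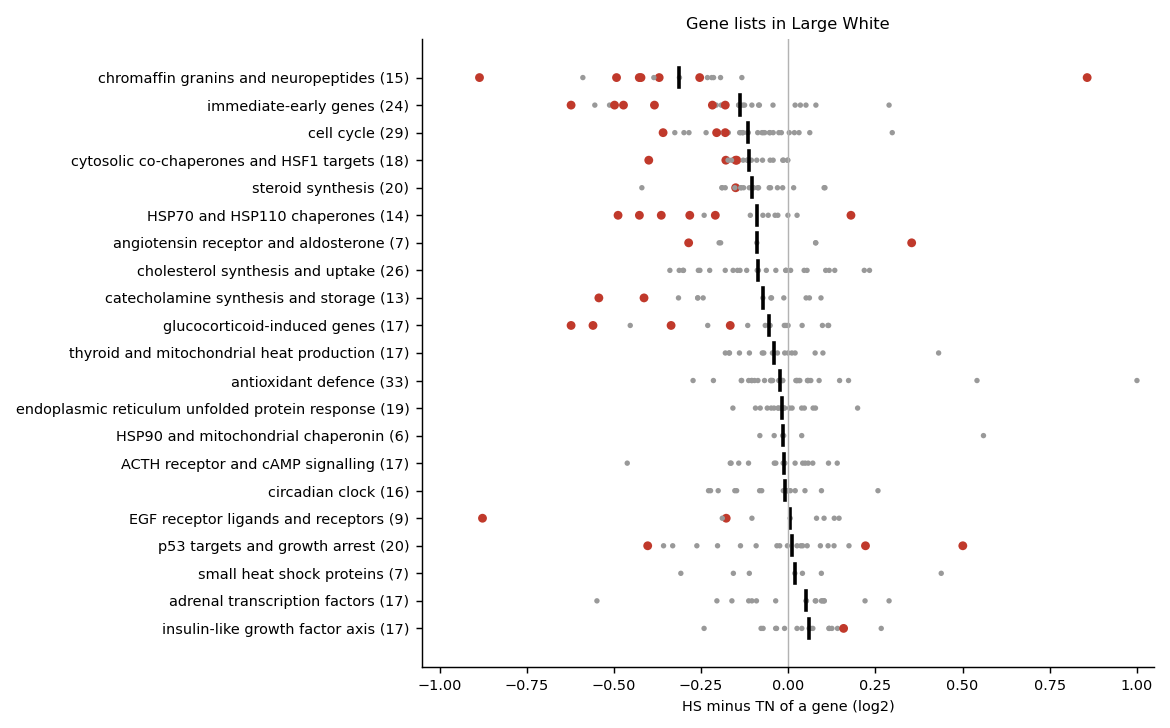
HS minus TN (log2) of each measured gene of 21 lists in Large White, with the number of genes in brackets, red for an unadjusted p under 0.05 and a black bar at the median of the list. One gene beyond 1 (GSTA2) is drawn at the right edge; the medians run from -0.31 for the granins to 0.06 for the insulin-like growth factor axis, and without HS pig 5 from -0.17 for the immediate-early genes to 0.06 for the adrenal transcription factors.

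Of 29 cell cycle genes 24 were lower, where 56.1% of all genes were, with a median of -0.11, and MCM6, CCNB2 and RRM2 were lower at an unadjusted p of 0.05, as 3.94% of all genes were. That count ran from 1 to 6 with 1 pig left out, and without TN pig 4 the median was -0.05 with 20 genes lower. Without HS pig 1 or 6 the median was -0.06 or -0.07. Of 20 p53 targets 10 were lower and 10 higher. One of them, BAX, a mitochondrial protein that triggers apoptosis, was at 8.47, 8.54 and 9.11 in TN and at 8.96, 9.16 and 9.36 in HS. Its 3 probes gave 0.31 to 0.60 (0.50 ± 0.14 on average, adjusted p = 0.54), and TN pig 3 was the only TN pig within the HS range. SESN1 was higher by 0.22, GADD45A lower by 0.36 and PLK3 lower by 0.40. Over all settings SESN1 ran from 0.18 to 0.27, GADD45A from -0.49 to -0.17 and PLK3 from -0.53 to -0.19. Of 9 EGF receptor ligands and receptors 4 were lower and 5 higher, 2 of them lower at an unadjusted p of 0.05 (0 to 3 with 1 pig left out). Their median was near 0 and took either sign with 1 pig left out, from -0.07 without HS pig 2 to 0.03 without TN pig 3. The lowest of them, AREG, a ligand, differed by -0.88 ± 0.41 (adjusted p = 0.77) with TN pigs from 6.94 to 9.17 and HS pigs from 6.48 to 8.51. The clock genes, the antioxidant genes and the genes of thyroid and mitochondrial heat production had no member at an unadjusted p of 0.05, and at most 2 with 1 pig left out. Their medians of -0.01, -0.02 and -0.04 then ran from -0.09 (without HS pig 1) to -0.01, from -0.04 (without HS pig 1 or TN pig 4) to -0.01 (without HS pig 4) and from -0.06 (without TN pig 4) to -0.01 (without HS pig 5). The insulin-like growth factor axis had 11 of 17 genes higher and a median of 0.06, or 0.04 without HS pig 3 or 4.

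Some genes had all probes on one side of 0 and at least 1 of them at an unadjusted p under 0.01. The 10 highest and 10 lowest of these by the median of their probes follow, with the difference of the gene mean. EHF, an epithelial ETS factor, was the lowest, at -1.48 ± 0.42 over 2 probes (adjusted p = 0.54). It stood at 9.83, 9.69 and 9.52 in TN pigs 1 to 3, at 8.22, 8.27 and 7.84 in TN pigs 4 to 6 and between 7.05 and 7.94 in HS. These were the same 3 TN pigs in which HSPA4 was high, with TN pigs 1 and 2 on slide 1, which held no Large White HS pig. The within-slide differences of EHF were -2.41, -1.10, -0.41 and -0.43. SDS, serine dehydratase, followed at -0.89 with 3 probes, and after it came MFAP2, SERPINF1, DUSP1, SGK1, PNMT, ADAMTS1, RAMP1 and PEG10, at -0.65 to -0.45. At the other end was TTC32 at 0.96. It stood within the HS range in TN pigs 4 and 5, between 9.90 and 10.19 in the other 4 TN pigs and between 11.17 and 12.12 in HS, and within slides it differed by 1.30, -0.24, 0.07 and 1.04. It was followed by ANKRD2, a muscle ankyrin repeat protein, at 0.77, and HOGA1 at 0.52, with BAX, PPP1R14A, GRIK2, APOM, LEPREL1 and SNX14 from 0.50 to 0.38. NFKBIZ completed these with 0.34 and 0.37 in its 2 probes. Its gene mean of 0.72 rests on a missing spot of the dimmer probe in HS pig 6, and without that probe it was 0.34. None of these 20 genes passed the FDR.

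How well the probes of a gene agreed depended on how their sequences were related. Of 5619 genes with at least 2 probes, 57.5% (95% exact interval 56.2 to 58.8, counting error only) had all probes on one side of 0. Where the brightest probe differed by less than 0.1 the share was 49.3%, and it was 70.1% between 0.1 and 0.25, 79.6% between 0.25 and 0.5 and 85.7% above 0.5. It fell with the number of probes, from 68.4% of genes with 2 probes to 33.7% of genes with 5 or more. Taking only probes that share no run of 15 bases left 5008 genes and gave 57.0%.

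Pairs of probes show what a repeat reading is worth. For 1007 pairs of probes with identical sequences, which are repeat readings of a target on the same array, the HS minus TN differences had the same sign in 85.4%, correlated at 0.90 (Pearson, across pairs that share pigs and arrays) and were 0.033 apart at the median. For 3416 overlapping pairs on the same strand these values were 81.9%, 0.83 and 0.036. For 29116 pairs without a shared run they were 69.7%, 0.60 and 0.063. Of all named probes, 57.4% were lower in HS. Where at least 1 probe of a pair had an unadjusted p under 0.01, the other had the same sign in 20 of 20 identical pairs, 41 of 42 overlapping pairs and 607 of 678 pairs without a shared run. There the probe with the larger p kept 94.1%, 87.4% and 56.5% of the other's difference at the median. A further 67 pairs overlapped on opposite strands. Their levels were 4.71 apart at the median, 62.7% had the same sign and the correlation was 0.24 (Spearman's rho 0.36). Of the 4 with a probe at an unadjusted p under 0.01, 3 had the same sign, as had 86.7% of the 15 in which both probes were above the median level.

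**Figure D5:**
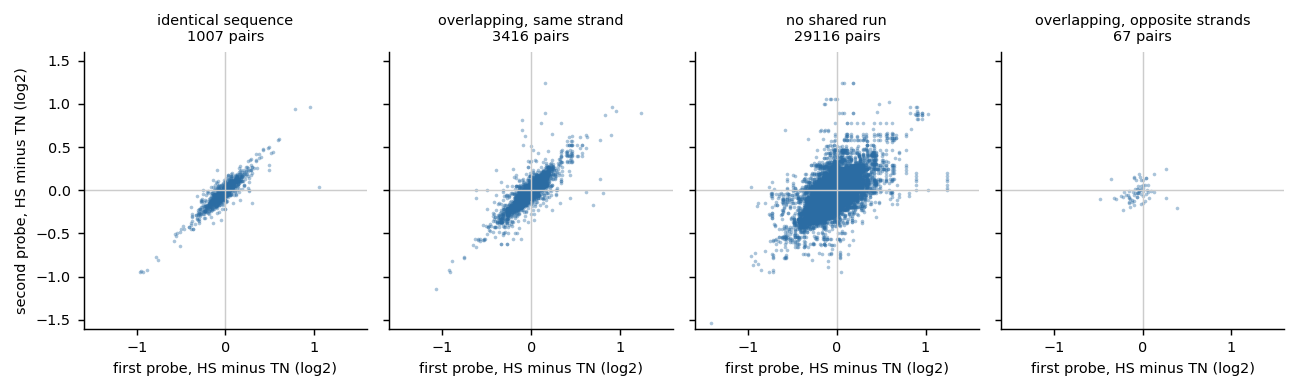
HS minus TN (log2) of the first against the second probe of a gene in Large White, for pairs of identical sequence, overlapping on the same strand, without a shared run of 15 bases and overlapping on opposite strands. The points lie near a line for identical pairs, spread for pairs without a shared run and scatter more for opposite strands, where they correlate at 0.24; 1 pair lies outside the axes.

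Single genes give examples. YWHAZ, a 14-3-3 adaptor protein, had 4 probes lower and 2 higher, from -0.74 to 0.13. Of a pair that overlaps by 36 bases on opposite strands, 1 probe differed by -0.36 and the other by 0.13, the one such pair of the 4 with opposite signs. The probes of NR0B1 gave 0.42 and 0.46 for 2 readings of 1 sequence and -0.22 for a dimmer probe. PEBP4 gave -0.59 and 0.69, AKAP13 0.68 in 1 probe and -0.16 to 0.06 in the other 5, and HLCS -0.57 and 0.19. These 3 genes and YWHAZ were among the 5 with the widest range between probes of the genes with a probe at an unadjusted p of 0.01, and a gene mean hides that range. In KLF4, SERPINF1, STAR (10 probes), KLF9 and HSPB8 (8 probes) every probe had the same sign. The probes of STAR have 9 distinct sequences and include 1 pair that overlaps on opposite strands. The 12 probes of KLF9 have 11 distinct sequences.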

How the data were processed

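RNA of whole adrenal glands was labelled with Cy3 and hybridised to 1-colour Agilent porcine arrays. The deposited table holds log2 values, made by the authors from the median pixel intensity after filtering and quantile normalization, for 45348 probes of 60305. The deposited scanner files (Agilent Feature Extraction 10.10.1.1 per the labels) hold the intensity of each spot before normalization and gave the alternatives. The values of 93 spots were missing. Probes were named from the symbols, accessions and descriptions of the scanner files and the RefSeq tables of Sscrofa11.1. Probes marked antisense (199) and probes with no name or several genes stayed unnamed.

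Group means of all 36 arrays were fitted with limma 3.58.1 (R 4.3.3), and HS minus TN was taken in Large White, per probe and per gene (mean of its probes, with a missing spot left out). The fit was tested on simulated data. The interaction was Large White minus the mean of the other breeds' responses. Genes past the FDR, the 10 highest and 10 lowest medians among genes with at least 2 probes of one sign and a p under 0.01, 3 members or more of each list, 12 genes of earlier interest and the 5 genes with the widest probe range were named, save for genes not reported here; genes named LOC followed by a number were passed over. The 12 Large White arrays lay on 5 slides, 4 of them with both groups. Slide 1 held TN pigs 1 and 2 and no Large White HS pig, so for these pigs slide and group cannot be told apart. The lists and the genes were chosen with earlier results of these data known. Alternatives were scanner values, background correction, filters, slides, array weights and leaving out pigs.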

Additional observations from a re-analysis of the deposited data

Results flagged for a closer look

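In 15 of 182 groups of 6 values of the named genes and array measures, the highest or lowest pig stood apart from the other 5 by more than Dixon's test allows at 95%. Chance gives about 1 in 20 such groups, or 9.1 here. HS pig 5 was the lowest HS pig for CHGA at 14.52, DBH at 9.51, HAND2 at 11.31 and ARNTL at 9.04. TN pig 4 was the lowest TN pig for MLKL at 6.87, against 8.10 to 8.68 in the other TN pigs, and for NFIL3 at 7.52. The median raw intensity of its array, 180.5, was also the highest in TN, where the others lay between 149.0 and 157.5. TN pig 3 was the highest TN pig for BAX at 9.11 and for SDF2L1 at 11.65. DUSP1 was highest in TN pig 1 at 14.09 and PRKAR1A in TN pig 5 at 11.90. In HS, HSPA4 was lowest in pig 3 at 8.66, SDS lowest in pig 4 at 6.98 and MCM6 highest in pig 2 at 10.23. NFKBIZ was highest in HS pig 6 at 10.34, in which the dimmer of its 2 probes had no value. The cause of these values was not tested.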

How the results depend on the processing

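The 5 probes and 2 genes past the FDR did not hold under all settings. No probe passed with normexp background correction and quantile normalization (0, with 2 genes), or with scaling to the 75th percentile (0, with 1 gene). The 12 Large White arrays alone and the slide as a fixed block each gave 2 probes and 1 gene, MLKL in the first and NPEPL1, higher by 0.43, in the second. Without slide 1 there were 2 probes and 1 gene, without slide 3 there was 1 probe and no gene (0), and without slide 2, 4 or 5 there were 0 probes and 0 genes. Array weights gave 11 probes. Leaving out 1 pig at a time gave 0 to 7 probes and 0 to 3 genes, the third being ACKR3 at -1.37 without TN pig 5. Probes passed only when HS pig 1 (7) or TN pig 4 (6) was left out, and the loss of any of the other 10 pigs left 0. At an unadjusted p under 0.05, 6.29% of probes passed in the fit of all arrays. The difference of MLKL stayed between -2.84 and -1.67 and that of KLF4 between -0.66 and -0.39 under every setting run. Against the other breeds 0 probes passed in every setting but 1, where 1 probe passed without slide 3. The cause of these changes was not tested.

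The share of genes with all probes in one direction was 59.2% with 75th percentile scaling, 58.9% for probes well above background on all 12 arrays, 58.8% with the slide as a fixed block, 58.9% without slide 1, 55.9% without slide 5 and 56.0% with array weights. Leaving out 1 pig gave 55.9% to 59.1%. With other scanner values or slides the median of the co-chaperones ran from -0.14 to -0.07, of steroid synthesis from -0.12 to -0.07, of cholesterol genes from -0.14 to -0.01, of the granins and neuropeptides from -0.36 to -0.22, of the immediate-early genes from -0.20 to -0.07, of the cell cycle from -0.13 to -0.08 and of the fibroblast markers from -0.31 to -0.22. For the angiotensin and aldosterone list this median ran from -0.12 to -0.02. It ran from -0.16 to -0.08 for the zona fasciculata and reticularis markers and from -0.25 to -0.10 for the red blood cell markers. Of the 89 named genes 88 kept their direction under all 28 settings. PEBP4, whose probes disagree, changed sign in 6 of them. It gave -0.0024 with 75th percentile scaling, -0.040 without slide 5, -0.027 with array weights and -0.59 for its brightest probe, and -0.11 to 0.16 with 1 pig left out. The use of probes without missing values and of the brightest probe for named genes, and the counts of list members with 1 pig left out, were chosen after seeing the data. No paired analysis was possible because the labels give no number that pairs a TN pig with an HS pig.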
